A study of Mus musculus with 20 samples.

Results

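Complement is a cascade of plasma proteins, and 9 of its genes were followed here through mouse liver: C1qa, C4b, C3, Cfb, Hc, C6, C8a, C8b and C9. They were picked by symbol from the 24968 symbols that each deposited table holds on a single row, with earlier results of these data known. All 9 were found in both the liver table and the table of RAW264.7 cells, a mouse macrophage line, and all 9 had a mean of at least 1 TPM in each liver comparison. TPM, as which the deposited values were read because the headers name no unit, scales a gene's reads by its length and by the library total, so levels can be set side by side between genes.

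The study addressed alcohol-associated liver disease and the redox forms of the protein HMGB1. Total liver RNA came from WT mice after 6 weeks on a control diet (4 libraries) or an alcohol diet (4 libraries), and from mice of the genotype labelled RageΔMye on the same diets for 6 weeks (3 libraries each). All liver libraries are labelled male, and no age or strain is given in the sources used here. The genotype name reads as a loss of Rage, the receptor encoded by Ager, in myeloid cells, and the labels name no Cre driver. Every library is whole tissue, so each level mixes hepatocytes with the other liver cells. The RAW264.7 cells, labelled WT, received bovine serum albumin (BSA) or a complex of oxidised HMGB1 with IL1β for 6 hours (3 libraries each). The labels do not say that libraries of a group came from separate animals or cultures, so the p-values below measure the spread between libraries, which may be technical.

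Several libraries went against their labels or stood apart. Ager was listed at 93.1 to 166 TPM in the libraries labelled RageΔMye and at 0.0194 to 0.478 TPM in the WT libraries. The WT alcohol libraries held Xist, the transcript of the inactive X chromosome, at 17.8 to 27.3 TPM and a sum of 4 Y-linked genes at 0 to 0.0161 TPM, against 0.00165 to 0.135 TPM and 11.3 to 16.6 TPM in the WT control libraries, although both groups are labelled male. Diet and the source of these sex-linked transcripts therefore cannot be told apart in WT liver. The Y-linked sum also differed without overlap in the libraries labelled RageΔMye, at 3.16 to 4.50 TPM on the control and 0.276 to 1.74 TPM on the alcohol diet, with Xist at 0 to 3.10 and 0.322 to 0.990 TPM, so the same limit touches that diet comparison. Genes above 0 numbered 15109 to 15595 in WT liver, 7592 to 8499 in the RageΔMye libraries and 8629 to 9229 in RAW264.7 cells. Genes whose exons overlap an exon on the opposite strand took 15.8% to 18.4% of the TPM in WT liver, 57.8% to 64.0% in the RageΔMye libraries and 69.3% to 73.5% in RAW264.7 cells. Of 14 housekeeping genes, chosen after the values were seen, up to 2 were listed at 0 in a RageΔMye or RAW264.7 library, so a 0 there does not show that a gene is silent. How much of the members' levels in the RageΔMye and RAW264.7 libraries is signal from the opposite strand was not tested.

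Complement tags microbes and damaged cells for clearance and can puncture their membranes. C1q starts the classical route by binding antibody, and the C4 and C2 proteins then build an enzyme that cuts C3, the component on which all routes converge. Factor B, the product of Cfb, joins C3b in the alternative route, which amplifies the reaction. Cleavage of C5, encoded in mice by Hc, leads to the stepwise binding of C6, C7, C8 and C9 into the membrane attack complex. Hepatocytes make most circulating components, while C1q comes largely from macrophages such as the Kupffer cells of the liver.

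In WT liver on the alcohol diet, C6, C8a, C8b, C9 and Hc, which encode terminal components, fell and C3 rose. C6 was 23.3-fold lower, C9 4.68-fold lower, C8a 4.65-fold lower, C8b 4.41-fold lower and Hc 1.80-fold lower in mean TPM, while C3 was 1.81-fold higher. C1qa, C4b and Cfb did not pass the test. The test was limma on log2(TPM + 1) over 9380 genes with Benjamini-Hochberg adjustment, and a gene was called at an adjusted p under 0.05. Thus 5 of the 9 members were called lower and 1 higher, where 17.4% of all tested genes were called lower and 13.0% higher (30.3% in all). The same 6 members were those whose libraries did not overlap between the diets, against 18.0% of all genes lower and 12.0% higher without overlap. In bulk tissue, fewer cells of a type and less RNA per cell cannot be told apart.

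The order of the levels in WT control liver ran from C3 to C1qa. C3 stood at 3576 ± 1011 TPM (SD, n = 4), rank 45 of all genes, followed by Cfb at 1117 ± 136 and C4b at 632 ± 100. C8a (444 ± 95.7), C8b (353 ± 66.2), C9 (330 ± 65.0), Hc (283 ± 76.7) and C6 (191 ± 28.4) came next, and the ranges of neighbours from C4b down to C6 overlapped. C1qa was last at 22.8 ± 3.97 TPM, and its range did not overlap that of C6. On the alcohol diet C6 moved to last place, at 8.20 ± 1.73 TPM and rank 4377, and C1qa at 29.5 ± 5.84 TPM stood above it.

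**Figure D1:**
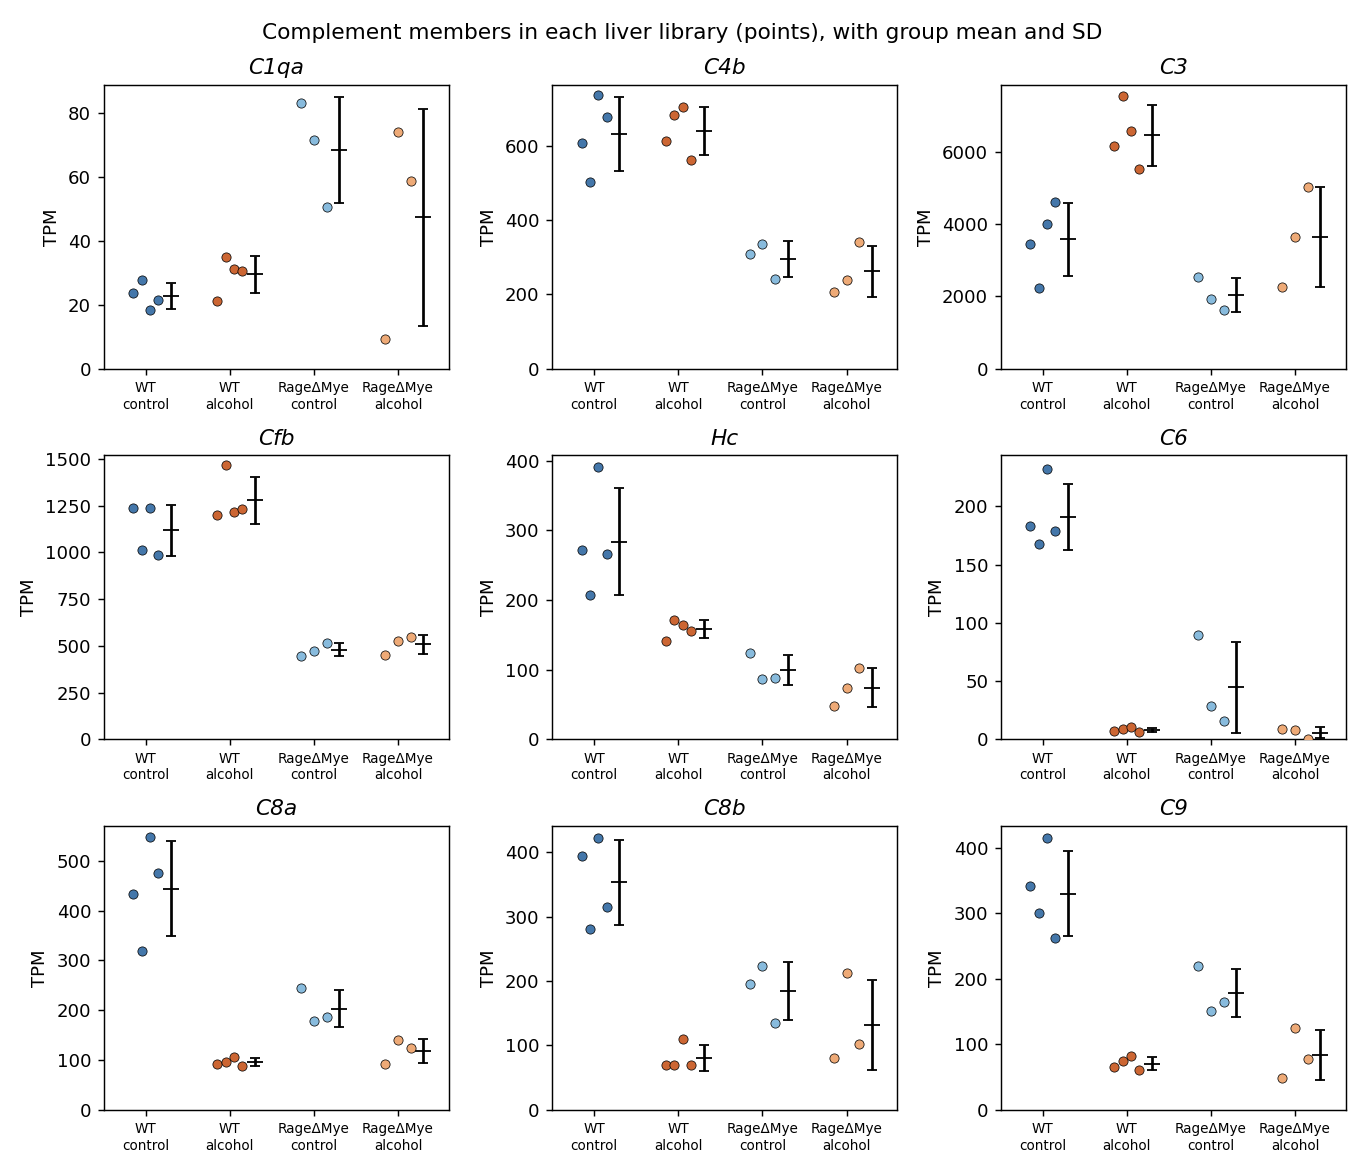
TPM of each of the 9 complement members (linear axes from 0) in the 14 liver libraries, 1 point per library, with the mean and SD of each group as a bar beside the points (n = 4 per WT group, 3 per RageΔMye group). In WT liver the C6, C8a, C8b, C9 and Hc points of the alcohol diet all lie below those of the control diet, and the C3 points all lie above.

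The terminal members carried the main change, and the bases upstream of 4 of them that fell furthest, with those upstream of C3, which rose, are shown for comparison. They are RefSeq sequences of build GRCm38.p6, the assembly also called mm10, written 5′ to 3′ along the gene's strand and ending just before the first annotated start: chr15:4726960-4727174 on the plus strand for C6, chr4:104876399-104876648 on the minus strand for C8a, chr4:104766067-104766316 on the plus strand for C8b, chr15:6445096-6445326 on the plus strand for C9 and chr17:57228137-57228386 on the minus strand for C3. Capitals mark matches to the motifs named after them.
C6: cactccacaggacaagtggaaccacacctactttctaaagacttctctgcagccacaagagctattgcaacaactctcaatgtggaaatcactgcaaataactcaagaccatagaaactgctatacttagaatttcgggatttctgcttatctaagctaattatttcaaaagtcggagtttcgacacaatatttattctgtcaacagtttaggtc
C8a: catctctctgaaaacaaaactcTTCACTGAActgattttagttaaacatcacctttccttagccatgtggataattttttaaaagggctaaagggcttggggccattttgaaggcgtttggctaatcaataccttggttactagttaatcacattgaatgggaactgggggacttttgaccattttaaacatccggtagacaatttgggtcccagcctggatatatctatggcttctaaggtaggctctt
C8b: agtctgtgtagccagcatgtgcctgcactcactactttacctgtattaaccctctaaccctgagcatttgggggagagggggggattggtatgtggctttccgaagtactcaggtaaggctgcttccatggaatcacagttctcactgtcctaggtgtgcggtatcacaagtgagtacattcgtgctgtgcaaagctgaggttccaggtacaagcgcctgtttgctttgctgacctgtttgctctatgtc
C9: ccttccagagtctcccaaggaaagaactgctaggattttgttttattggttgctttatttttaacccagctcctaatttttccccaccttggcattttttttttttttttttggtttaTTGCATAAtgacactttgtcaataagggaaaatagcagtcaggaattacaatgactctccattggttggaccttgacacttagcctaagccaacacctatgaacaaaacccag
C3: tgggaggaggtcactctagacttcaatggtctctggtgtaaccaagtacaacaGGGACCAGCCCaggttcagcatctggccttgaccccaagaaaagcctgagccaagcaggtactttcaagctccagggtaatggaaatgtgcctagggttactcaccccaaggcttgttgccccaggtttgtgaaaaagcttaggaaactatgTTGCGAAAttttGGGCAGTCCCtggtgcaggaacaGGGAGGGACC

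Motifs were searched on both strands from 250 bases before to 50 bases after each RefSeq start, a window found for 6 of the 9 members (the 5 above and Hc). C8a held the STAT5 motif TTCNNNGAA with its first base at -228, which 8.30% of all 32851 promoters hold. C9 held the C/EBP motif TTGCNNAA at -132 and C3 held it at -45, against 10.8% of all promoters. C3 also held 4 matches, 2 of which overlap, to the loose NF-kB motif (GGG and CC with any 5 bases between them), present in 50.8% of promoters. Hc held the HNF1 motif (GTTAAT and ATT with any 1 base between them) at -78, in 0.399% of promoters, and the NF-kB motif at -4. None of the searched motifs, the interferon response motif (GAAA repeated after any 2 bases) included, had a match in the C6 or C8b window, which says only that these letters are not there. A match is a description of the sequence and not a binding site.

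C6 encodes the protein that binds C5b and opens the assembly of the membrane attack complex. Its gene spans chr15:4727175-4814967 on the plus strand (GENCODE, GRCm38). C6 was listed at 183, 168, 232 and 179 TPM on the WT control diet and at 6.91, 9.08, 10.2 and 6.61 TPM on the WT alcohol diet. The alcohol libraries lay far below every control library, with no overlap. The log2 difference was -4.39 (SE 0.157; adjusted p = 2.1e-08 by limma), the largest among the members, and no alternative processing ended it. In the libraries labelled RageΔMye, C6 stood at 89.4, 28.4 and 15.8 TPM on the control diet and at 9.22, 7.89 and 0 TPM on the alcohol diet. The groups did not overlap, but the control libraries differed among themselves 5.66-fold and 1 alcohol library was listed at 0. The fitted difference of -2.98 (SE 1.06) had an adjusted p of 0.584 by limma over 9881 genes. With 1 library left out it ranged from -3.57 to -1.90, the latter without alcohol replicate 3, the library at 0.

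C8a and C8b encode the alpha and beta chains of C8, and the genes lie side by side on chromosome 4, 11130 bases apart and on opposite strands (C8b at chr4:104766317-104804548, C8a at chr4:104815679-104876398). C8a was listed at 434, 319, 547 and 476 TPM on the WT control diet and at 91.6, 96.4, 107 and 87.1 TPM on the alcohol diet. C8b was listed at 394, 281, 423 and 315 TPM and at 70.1, 69.7, 111 and 69.9 TPM in the same libraries. Both genes were lower in all 4 alcohol libraries than in any control library, by -2.18 (SE 0.159; adjusted p = 6.9e-06) and -2.14 (SE 0.183; adjusted p = 2.4e-05) on the log2 scale. The ratio of C8a to C8b was 1.26 ± 0.19 on the control diet and 1.23 ± 0.18 on the alcohol diet (SD, n = 4 each). C8g, which encodes the third chain of C8, was at 539 ± 81.5 and 464 ± 44.5 TPM and did not pass (log2 difference -0.21, adjusted p = 0.255), so the ratio of C8a to C8g went from 0.852 ± 0.273 to 0.208 ± 0.0328.

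In the libraries labelled RageΔMye, C8a was at 246, 178 and 187 TPM on the control diet and at 92.8, 139 and 124 TPM on the alcohol diet. These groups did not overlap, and the log2 difference was -0.78 (SE 0.295; adjusted p = 0.611 by limma). C8b was at 196, 224 and 135 TPM against 81.1, 212 and 102 TPM, with overlap and a log2 difference of -0.58 (SE 0.419; adjusted p = 0.766). One RageΔMye alcohol library, replicate 2, held C8b at the level of the control libraries, and the C8b difference was -0.98 without it and -0.30 without alcohol replicate 1.

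C9 encodes the protein that polymerises into the pore. Its gene lies at chr15:6445327-6498751 on the plus strand, 1630359 bases beyond the end of C6. C9 was listed at 341, 300, 415 and 263 TPM on the WT control diet and at 64.7, 74.8, 82.0 and 60.2 TPM on the alcohol diet. The groups did not overlap, and the log2 difference was -2.20 (SE 0.156; adjusted p = 5.5e-06 by limma). C9 in the RageΔMye libraries was at 220, 151 and 164 TPM against 48.9, 125 and 77.0 TPM. These too did not overlap, and the log2 difference of -1.16 (SE 0.401) had an adjusted p of 0.579 by limma.

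The ratio of C8a to C9 in WT liver was 1.37 ± 0.318 on the control and 1.36 ± 0.0797 on the alcohol diet. C8a, C8b and C9 thus kept their proportions within the spread of the libraries. C6 did not: its ratio to C9 was 0.585 ± 0.0659 on the control diet and 0.116 ± 0.00857 on the alcohol diet, with no overlap.

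Hc encodes C5, whose larger fragment C5b begins the terminal steps and whose smaller fragment C5a attracts neutrophils. The gene spans chr2:34983331-35061438 on the minus strand, and 76 of its exon bases overlap the antisense gene Gm13449, which is not analysed here. Hc was listed at 271, 207, 390 and 265.2 TPM on the WT control diet and at 141, 171, 164 and 156 TPM on the alcohol diet. Every alcohol library was below every control library, and the log2 difference was -0.81 (SE 0.172; adjusted p = 0.00648 by limma). The ratio of Hc to C9 went from 0.859 ± 0.144 to 2.26 ± 0.244, since C9 differed more. A fit of all 14 liver libraries with a shared spread gave Hc an adjusted p of 0.148. Hc in the RageΔMye libraries was at 124, 86.3 and 88.6 TPM against 47.1, 73.2 and 102 TPM, which overlap (log2 difference -0.47, SE 0.387, adjusted p = 0.766; -0.18 without alcohol replicate 1 and -0.73 without alcohol replicate 3).

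Genes known to be expressed more in male than in female mouse liver were also lower in sum on the alcohol diet. The sum of 10 such genes, among them Cyp4a12a and Slco1a1, was 32400 to 48250 TPM in WT control, 130.5 to 1040 TPM in WT alcohol, 9575 to 10890 TPM in RageΔMye control and 780.9 to 2813 TPM in RageΔMye alcohol libraries. In WT liver 10 of these 10 genes were called lower, where 17.4% of all tested genes were, and 10 of 10 female-biased genes were called higher, against 13.0%. In the RageΔMye libraries 1 of the 10 male-biased genes was called lower, with log2 differences from -6.03 to -0.04. There 0 of 4 tested female-biased genes were called, where 0.0405% of all genes were. The female-biased sum on the alcohol diet was 178.5 to 773.2 TPM there and 5772 to 8059 TPM in WT liver. Within the WT alcohol libraries the male-biased sum did not follow C6. The sum was 1025, 130.5, 539.1 and 1040 TPM where C6 was 6.91, 9.08, 10.2 and 6.61 TPM. In the RageΔMye libraries the male-biased sums did not overlap between the diets, whereas C8b and Hc did. The part of the shift in sex-biased genes in the fall of C6, C8a, C8b, C9 and Hc was not tested, and in WT liver it cannot be told apart from diet. Hepatocyte markers such as Alb and Apoa1 did not fall as a set in WT liver. Of 7 tested there, 2 were called higher and 1 lower, and their sum was 149300 to 169200 TPM in WT control and 176300 to 198900 TPM in WT alcohol libraries. In the RageΔMye libraries 0 of the 7 were called and 4 had a negative log2 difference. Their sum there was 56880 to 73210 TPM on the control and 55150 to 63670 TPM on the alcohol diet, which overlap. The part of hepatocyte content in the terminal members was not tested.

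**Figure D2:**
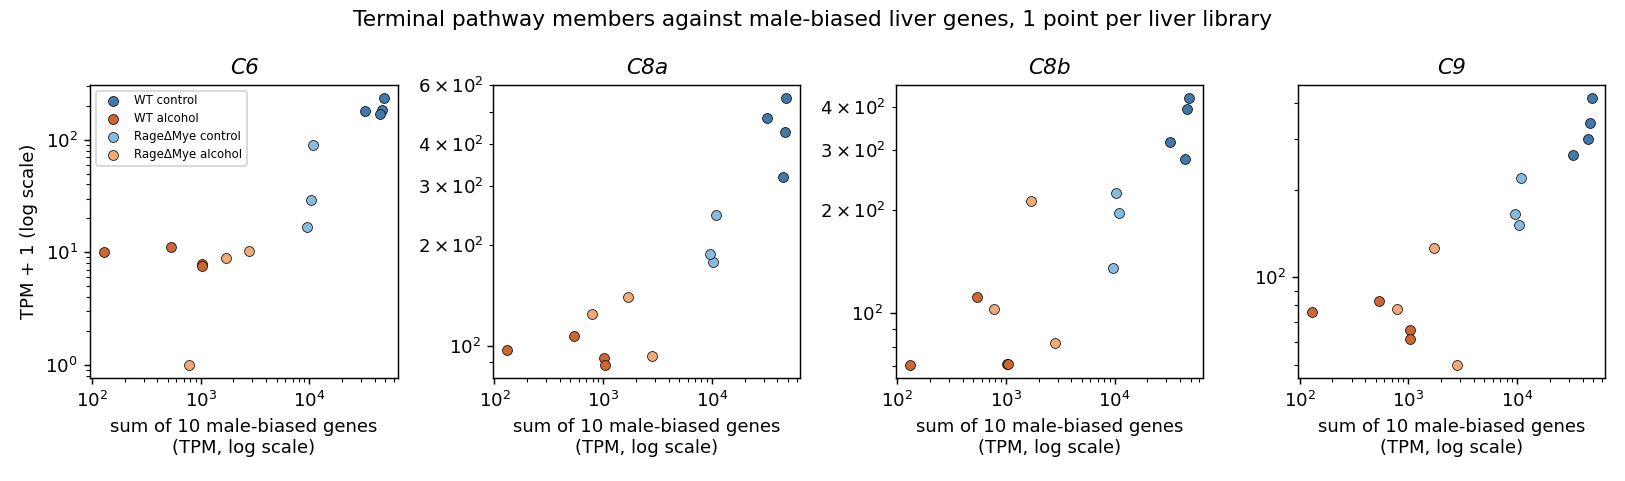
TPM + 1 of C6, C8a, C8b and C9 (log axis) against the summed TPM of 10 male-biased liver genes (log axis), 1 point per liver library, coloured by group. The alcohol libraries of both genotypes (130.5 to 2813 TPM) lie to the left of the control libraries (9575 to 48250 TPM), and RageΔMye alcohol replicate 2 holds C8b at 212 TPM, within the range of its control libraries.

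Over the 8 WT libraries, which share the diet difference, the genes most alike to C6 by Pearson's r of log2 values were Cyp4a12b (0.9965), Cyp4a12a (0.9964) and Cyp2d9 (0.9960). Those most alike to C8a were Capn8 (0.9990), Lmod2 (0.9980) and Slco1a1 (0.9965), and those most alike to C8b were Selenbp2 (0.9912), Serpine2 (0.9894) and Slco1a1 (0.9886). For C9 they were Ces3a (0.9960), Phyh (0.9936) and C6 itself (0.9933). For Hc they were Cdca7 (0.9907), Agtpbp1 (0.9905) and Dmxl2 (0.9824). Of these genes, Cyp4a12a, Cyp4a12b, Cyp2d9, Slco1a1 and Selenbp2 are on the male-biased list, whose 10 genes were all called lower in WT liver. A large fall between the diets by itself gives a high r over these 8 libraries, so the likeness adds nothing beyond that shared fall.

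C3 is the protein cut by every route of activation, and its gene lies at chr17:57203970-57228136 on the minus strand. C3 was listed at 3445, 2236, 4015 and 4607 TPM on the WT control diet and at 6174, 7551, 6566 and 5533 TPM on the alcohol diet. The lowest alcohol library stood above the highest control library, and control replicate 2 was the lowest of all 8. The log2 difference was 0.89 (SE 0.207; adjusted p = 0.00956 by limma), and in the shared-spread fit of all 14 liver libraries the adjusted p was 0.119. In the RageΔMye libraries C3 was at 2549, 1933 and 1638 TPM against 2252, 3645 and 5027 TPM. These groups overlap through alcohol replicate 1, and the log2 difference of 0.78 (SE 0.306) had an adjusted p of 0.623 by limma and was 0.51 without alcohol replicate 3.

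The ratio of C3 to C4b was 5.59 ± 0.969 in WT control and 10.1 ± 0.724 in WT alcohol libraries, with no overlap. In the RageΔMye libraries it was 6.94 ± 1.25 and 13.6 ± 2.41 (n = 3 each), again with no overlap. C3 alone overlapped between the diets there and did not pass, and neither ratio was tested. The genes most alike to C3 over the 8 WT libraries were Nck1 (r = 0.9856), Wdr5 (0.9794) and Tmx1 (0.9786). The summed hepatocyte markers were also higher in every WT alcohol than in every WT control library. Of the 7 tested markers 2 were called higher and 1 lower, with a median log2 difference of 0.03. The part of these markers in the C3 difference was not tested.

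Cfb encodes factor B, the serine protease of the alternative route (chr17:34856374-34862518, minus strand). Cfb was listed at 1235, 1014, 1235 and 986 TPM on the WT control diet and at 1200, 1467, 1213 and 1232 TPM on the alcohol diet. The groups overlapped, and the log2 difference of 0.20 (95% interval -0.07 to 0.47; adjusted p = 0.252) did not pass. Quantile normalization of the libraries gave 0.34 with an adjusted p of 0.0272. Cfb in the RageΔMye libraries was at 447, 472 and 515 TPM against 452, 526 and 547 TPM, with a difference of 0.09 (95% interval -0.38 to 0.56; adjusted p = 0.934). Nelfe, whose gene on the opposite strand ends next to the 3′ end of Cfb, was listed at 16.5 to 24.3 TPM in WT liver and at 506 to 1122 TPM in the RageΔMye libraries, and its part in the Cfb level there was not tested. Gm20547, a gene on the same strand as Cfb, overlaps exons of Cfb. How reads shared by Cfb and Gm20547 were assigned is not given in the sources used here, so the Cfb level is uncertain.

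C4b encodes C4, which C1s cleaves to build the classical C3 convertase (chr17:34728380-34743882, minus strand). C4b was listed at 608, 504, 737 and 677 TPM on the WT control diet and at 613, 683, 704 and 561 TPM on the alcohol diet, which overlap throughout. The log2 difference was 0.03 (95% interval -0.28 to 0.33; adjusted p = 0.895), and its sign turned when a single library was left out. The RageΔMye libraries gave 309, 336 and 241 TPM against 208, 239 and 340 TPM (-0.19, 95% interval -0.84 to 0.47; adjusted p = 0.861; -0.39 to -0.04 with 1 library left out).

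C4a, a near-identical copy of C4b whose protein is known as sex-limited protein in mice, differed from it. C4a was at 51.3, 32.3, 55.0 and 23.6 TPM on the WT control diet and at 2.92, 2.16, 2.82 and 2.63 TPM on the alcohol diet, a log2 difference of -3.44 (SE 0.239; adjusted p = 4.5e-06 by limma). How the authors assigned reads shared by the copies is not given in the sources used here, so both levels are uncertain. C4a was 3.37% to 7.78% of the summed TPM of the pair on the WT control diet and 0.315% to 0.474% on the alcohol diet. In the RageΔMye libraries its share was 2.50% to 9.15% on the control and 1.27% to 10.3% on the alcohol diet, which overlap.

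C1qa encodes the A chain of C1q, and the genes of its B and C chains adjoin it on chromosome 4 (C1qa at chr4:136895917-136898803, minus strand). C1qa was listed at 23.6, 27.7, 18.3 and 21.4 TPM on the WT control diet and at 21.2, 34.9, 31.3 and 30.6 TPM on the alcohol diet. Alcohol replicate 1 lay within the control range and the other 3 above it, and the log2 difference of 0.35 (95% interval -0.03 to 0.73; adjusted p = 0.148) did not pass. Without that library it was 0.50 with an adjusted p of 0.0484.

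C1qb (0.42, adjusted p = 0.0908) and C1qc (0.40, adjusted p = 0.103) had similar differences and did not pass. The ratio of C1qa to C1qb was 0.756 ± 0.0580 on the control and 0.722 ± 0.0411 on the alcohol diet, and C1qb was second among the genes most alike to C1qa (r = 0.9607), after Ifi30 (0.9765) and before Siglece (0.9507). The summed Kupffer cell and macrophage markers were lowest and highest in the same WT alcohol libraries as C1qa. They were 195.6 TPM in alcohol replicate 1, 435 TPM in replicate 2 and 320.4 and 330.4 TPM in replicates 3 and 4. They did not follow C1qa in the control libraries, at 255, 257.1, 266.7 and 273 TPM where C1qa was 23.6, 27.7, 18.3 and 21.4 TPM. None of these 10 markers was called in WT liver or listed at 0 there, and their part in the C1qa values was not tested.

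In the RageΔMye libraries C1qa was at 83.1, 71.5 and 50.4 TPM on the control diet and at 9.33, 74.0 and 58.6 TPM on the alcohol diet. The low alcohol library, replicate 1, also had the lowest Kupffer cell and macrophage marker sum, 55.4 TPM with 7 of 10 markers at 0, against 169 to 395.9 TPM with 2 to 5 at 0 in the other RageΔMye libraries. A second list of 7 macrophage markers was not lowest there, at 30.83 TPM against 14.2 to 120.4 TPM in the others. C1qb was 25.59 TPM there and 25.48 to 71.28 TPM in the others. The part of the markers in the C1qa values was not tested. The log2 difference of C1qa was -0.92 (95% interval -2.65 to 0.81; adjusted p = 0.766), and it was -0.02 without alcohol replicate 1 and -1.45 without alcohol replicate 2. The ratio of C1qa to C1qb was 1.98 ± 1.16 on the control and 1.30 ± 0.822 on the alcohol diet, a wider spread than in WT liver.

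None of the 9 members passed in the libraries labelled RageΔMye, where 4 of 9881 genes (0.0405%) were called. At an unadjusted p under 0.05 there were 3 lower members (C6, C8a and C9) and 1 higher (C3), against 3.20% of all genes lower and 4.27% higher. The same 3 members were the ones whose groups did not overlap, and 6.08% of all genes were lower without overlap. Alcohol replicate 1 was the lowest of its group in 8 of the 9 members. The shared-spread fit of all 14 liver libraries called 653 genes in this comparison, against 4 in the separate fit. C6 (adjusted p = 0.0410 by limma) and C9 (adjusted p = 0.0418) were among those lower. That fit shares 1 spread with the WT libraries, whose replicates agreed more closely (r of 0.986 to 0.995 against 0.844 to 0.867).

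**Figure D3:**
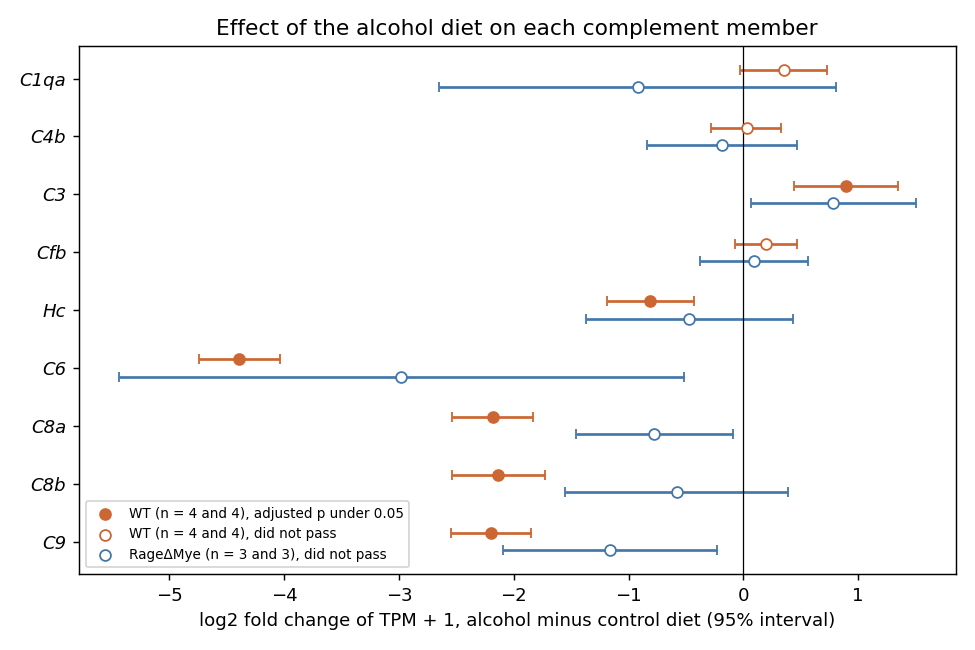
Log2 fold change of TPM + 1, alcohol minus control diet, for the 9 members in WT liver (orange) and in the libraries labelled RageΔMye (blue), with 95% intervals from limma and filled points for an adjusted p under 0.05. The WT intervals of C6, C8a, C8b, C9 and Hc lie below 0, that of C3 lies above 0, and no RageΔMye point is filled.

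The difference of the diet effect between the genotypes, RageΔMye minus WT, was fitted over all 14 liver libraries with library weights per genotype, and 0.576% of 10585 genes were called. No member passed, and the intervals were wide. The difference was 1.41 for C8a (95% interval -0.41 to 3.22; adjusted p = 0.695), 1.56 for C8b (-0.62 to 3.73; adjusted p = 0.702) and 1.04 for C9 (-0.79 to 2.87; adjusted p = 0.785). For C6 it was 1.41 (-0.94 to 3.76; adjusted p = 0.767) and for C3 -0.11 (-2.47 to 2.26; adjusted p = 0.988). For the genes that fell, a positive value means a smaller fall in the RageΔMye libraries, and for C3 a negative value means a smaller rise. As given above, the genotypes also differed in their sex-linked transcripts, genes above 0 and share of TPM in genes with opposite-strand overlap. A difference between the genotypes cannot be told apart from these. The test was sensitive to the spread assumed. To give each genotype its own spread, the estimates of the separate limma fits were subtracted and their SEs combined. A t test on that difference called 1.12% of 7751 genes. Its intervals were 0.67 to 2.14 for C8a (adjusted p = 0.0804), 0.55 to 2.57 for C8b (adjusted p = 0.199) and 0.08 to 2.00 for C9 (adjusted p = 0.393). With no library weights 443 genes were called, against 61 with them, and C8a had an adjusted p of 0.0195 by limma. That setting gives both genotypes a shared spread, although the RageΔMye replicates agreed less closely. On simulated data the weighted test gave more false calls than its threshold allows.

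The other genes of the pathway showed where the WT change lay. Of 57 complement genes in 7 lists, 54 were in the table and 42 were tested in WT liver, where 8 were called higher, 13 lower and 21 did not pass. Over all 9380 tested genes 13.0% were called higher and 17.4% lower, shares against which the counts per list below can be read. Their median log2 difference was -0.09, against -0.05 for all tested genes and -0.81 for the 9 members. Of the 6 tested terminal genes 5 were lower, all of them members, and C7 was under the filter at 0.443 ± 0.233 TPM on the control diet.

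Among 8 classical genes 3 were lower and none higher: C4a, C1s1 (436 to 293 TPM, -0.57, adjusted p = 0.00425) and C1ra (289 to 196 TPM, -0.55, adjusted p = 0.00484), the last being proteases of the C1 complex. The 7 tested lectin genes split, with 3 higher and 2 lower. Mbl2, a mannose-binding lectin, rose (499 to 851 TPM, 0.78, adjusted p = 0.00349), Masp2, the protease it activates, fell (223 to 170 TPM, -0.39, adjusted p = 0.0179), and the ficolin gene Fcna rose (0.38, adjusted p = 0.0329). Of the 4 genes of the C3 and alternative list, C3 and Cfp, which encodes the stabiliser properdin (0.54, adjusted p = 0.0328), were higher. Cfd, the protease that cuts factor B, was lower, from 12.4, 70.0, 10.9 and 39.6 TPM to 0, 0.0749, 2.77 and 0.0955 TPM (adjusted p = 8.0e-04), and is known as adipsin for its expression in fat cells.

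Of 10 tested fluid-phase regulators C4bp, a cofactor in the breakdown of C4b, was lower (-0.31, adjusted p = 0.0348) and the other 9 did not pass, where 30.3% of all tested genes were called. Of 4 membrane regulators Cd55 was higher (1.81 to 3.80 TPM, 0.77, adjusted p = 0.0225) and Cd59a, which blocks C9 polymerisation, was lower (41.1 to 28.8 TPM, -0.49, adjusted p = 0.0461). Of 3 tested receptors Cd93 (1.16, adjusted p = 0.00341) and Itgb2 (0.60, adjusted p = 0.0193) were higher. Monocyte and neutrophil markers, which share Itgam with the receptor list, were also higher, at a sum of 31.6 to 75.1 TPM in control and 143 to 240.4 TPM in alcohol libraries. Of 6 sinusoidal endothelial markers 2 were called higher (Lyve1 and Pecam1; median sums of 73.8 and 174.6 TPM, with overlap), as were 2 of 5 tested stellate cell markers (Dcn and Lum; sums of 38.5 to 58.6 and 69.6 to 127.1 TPM). The part of these markers in the receptor values was not tested.

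**Figure D4:**
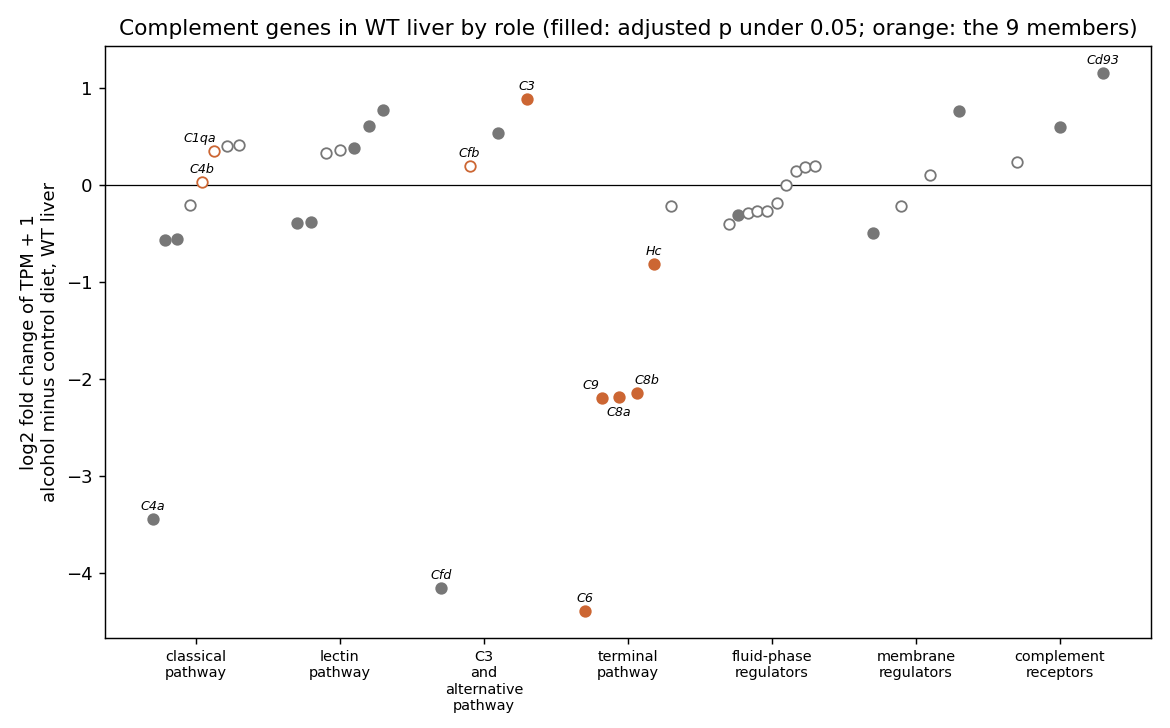
Log2 fold change of TPM + 1 in WT liver, alcohol minus control diet, for the 42 tested complement genes grouped by role, 1 point per gene (filled for an adjusted p under 0.05, orange for the 9 members). The terminal pathway holds 5 filled points between -4.39 and -0.81, and C4a and Cfd are the other genes below -3.

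In the libraries labelled RageΔMye, 41 of the 57 genes were tested and none passed with limma. At an unadjusted p under 0.05 there were 2 higher and 3 lower, where 4.27% and 3.20% of all genes were, and 0.0405% were called after adjustment. Beside the members, the smallest p-values belonged to Cd59a (0 to 19.6 TPM on the control and 31.9 to 53.1 TPM on the alcohol diet, adjusted p = 0.619) and Vsig4, a complement receptor of Kupffer cells (0 to 26.9 TPM on the control diet and listed at 0 in all alcohol libraries, adjusted p = 0.641).

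In RAW264.7 cells C1qa and C3 were listed at 0 in all 6 libraries, with BSA and with the complex, so no fold can be given. The sum of 7 macrophage markers was 916 to 1438 TPM with at most 1 of them at 0 in a library, and the 7 hepatocyte markers were at 0 in every library. C4b, C6, C8a, C8b and C9 were also listed at 0 throughout, and Hc was above 0 in 1 library, at 1.33 TPM. Cfb was the only member tested there, at 4.28, 9.71 and 11.6 TPM with BSA and 14.02, 4.91 and 18.5 TPM with the complex. These overlap, and the log2 difference was 0.43 (0.05 to 0.94 with 1 library left out; 95% interval -1.01 to 1.87; adjusted p = 0.846, with 0.434% of 9907 genes called). None of the 13 tested complement genes passed with limma, and none had an unadjusted p under 0.05. The smallest p-values belonged to Fcna (0 in all BSA libraries and 7.49, 0 and 7.44 TPM with the complex, adjusted p = 0.585) and Cfp (9.77, 33.6 and 33.8 TPM against 43.6, 46.2 and 43.4 TPM, adjusted p = 0.621). Not all list genes were near 0: Masp2 was at 525.8 to 772.9 TPM and C8g at 44.43 to 207.5 TPM over the 6 libraries. Masp2 shares 1817 exon bases with Tardbp on the opposite strand, whose part in the Masp2 level was not tested.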

How the data were processed

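RNA was sequenced from 14 liver and 6 RAW264.7 libraries made with a stranded mRNA kit, per the labels' protocols. The authors deposited 1 table per system whose values were read as TPM, because they are not whole numbers and sum to 999687 to 999995 in every library. The headers name no unit. Per the submitters' processing notes the genome build is mm10. Which aligner and counter were used, and with which strand setting, is not given in the sources used here. TPM keep no read depth, so counting error is unknown. The 2 symbols with 2 rows each were left out.

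The values were tested on log2(TPM + 1) with limma 3.58.1 in R 4.3.3 (intensity trend, mean of at least 1 TPM, Benjamini-Hochberg over all genes tested, two-sided, threshold 0.05), in separate fits of 8 WT, 6 RageΔMye and 6 RAW264.7 libraries; a fold change on this scale understates the change of low genes. Folds in TPM are ratios of group means. The difference between genotypes was fitted on 14 libraries with arrayWeights per genotype. The scripts were tested on simulated data, where this difference test gave more false calls than its threshold allows. No pair of libraries held identical values. Positions come from GENCODE vM21 (GRCm38).

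The members and lists were chosen with earlier results of these data known. Named genes were the 9 members; per pathway list up to 3 other passing genes with the smallest adjusted p in WT liver; up to 3 passing list genes in the other comparisons, or else the 2 with the smallest p; genes overlapping a member on the opposite strand; the 3 genes most alike to a member; and marker genes beside a result. Alternatives were pseudocounts of 0.1 and 0.01, 3 other filters, quantile normalization, a joint fit, a replicate block and leaving out each library. A rescaling without opposite-strand genes and a difference of separate fits were added after seeing the data.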

Additional observations from a re-analysis of the deposited data

Results flagged for a closer look

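C8b in the WT alcohol group was at 110.6 TPM in replicate 3 and at 69.7 to 70.1 TPM in the other 3 libraries; the gap from this library to its nearest neighbour was 0.991 of the group's range, above Dixon's 95% critical value for 4 samples. Replicate 3 was also the highest of its group for C4b, C6, C8a and C9. Cfb in the WT alcohol group was at 1467 TPM in replicate 2 and at 1200 to 1232 TPM in the others, a gap of 0.879 of the range. Of 18 member-by-group sets of 4 WT libraries these 2 stood out, and chance alone marks about 1 in 20 such sets. Without WT alcohol replicate 3, the C8b difference was -2.30 on the log2 scale, with an adjusted p of 1.2e-05 by limma.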

How the results depend on the processing

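C6, C8a, C8b and C9 kept their direction and their call in WT liver under all 16 alternatives run for each; C6 ranged from -4.55 to -4.29, C8a from -2.33 to -2.07, C8b from -2.30 to -2.04 and C9 from -2.30 to -2.08. C4b in WT liver turned sign, at -0.08 without control replicate 2 and -0.02 without alcohol replicate 3 (range over left-out libraries -0.08 to 0.11). Genes called in WT liver numbered 1657 with a 5 TPM minimum on the mean, 267 in the joint fit and 1917 to 3221 with 1 library left out. Members called higher there numbered 2 with quantile normalization, 0 in the joint fit and 1 to 2 with a library left out. Complement list genes called higher numbered 1 in the joint fit and 3 to 9 with a library left out (3 without alcohol replicate 2; 4 without control replicate 1 or 3; 5 without control replicate 2 or alcohol replicate 3), and those called lower 6 in the joint fit and 9 to 13.

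In the RageΔMye libraries 0 genes were called with a pseudocount of 0.01, 9 with at least 5 TPM, 7 with quantile normalization, 653 in the joint fit, in which 2 members and 2 list genes were lower, and 0 to 5 with a library left out (0 without control replicate 2 or alcohol replicate 2, 1 without control replicate 3). In RAW264.7 cells, against 43 genes called, 13 were called with either smaller pseudocount, 14 with no filter, 20 with at least 5 TPM, 19 with the filter per group, 18 with quantile normalization, 4 with the rescaled TPM and 2 to 12 with any 1 library left out.

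For the difference between genotypes, 61 genes were called, 128 with no filter, 40 with at least 5 TPM, 38 with the rescaled TPM, 443 with no library weights (1 member and 2 list genes positive) and 59 to 83 with a library left out. The C6 difference turned to -0.70 with a pseudocount of 0.01. The C3 difference turned to 0.17 with quantile normalization and to 0.10, 0.06 and 0.20 without WT control replicate 2, RageΔMye control replicate 1 and RageΔMye alcohol replicate 1 (range -0.38 to 0.20). The causes were not tested.

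Replicate numbers were shared by the RageΔMye groups and by the RAW264.7 groups. Same-numbered libraries did not deviate together (correlations -0.017 to 0.018 and -0.027 to -0.001), and a fit with the replicate number as a block called 0 genes in each. The count-based alternative was not run, since the values are not counts. Read depth is unknown, which limits all low values.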
